A study of Mus musculus with 44 samples.

Results

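The collagen chain genes were taken as all protein-coding genes whose symbol in GENCODE M21, the mouse gene annotation on GRCm38, has the form Col, a number, a and a number. All 44 such genes were found by Ensembl identifier among the 54446 genes of the count table. They fell into 11 fibrillar chains, 6 basement membrane network chains, 6 beaded filament chains, 4 chains of hexagonal networks and anchoring fibrils, 9 FACIT chains (collagens that sit on the surface of fibrils), 2 multiplexins, 4 transmembrane chains and 2 others. The one similar symbol left out was Col4a3bp, a lipid transfer protein named for an interaction with a collagen.

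RNA was measured by ribosomal RNA-depleted sequencing of total RNA from the liver and the whole brain of male C57BL/6 mice, to ask how a ketogenic diet (KD) acts on aging tissue. There were 8 livers of 26-month KD mice, 8 livers of 26-month mice on the control diet (CD), 8 brains of 26-month KD mice, 8 brains of 26-month CD mice, 7 brains of 12-month KD mice and 5 brains of 12-month CD mice. The labels name no altered genotype in any group. The 26-month KD mice had received the KD in alternate weeks from 12 to 26 months of age and were sampled in a week of CD feeding. This feeding is called one year of KD here, as in the study. The 12-month KD mice had received the KD for one week. All mice ate chow until the diets began at 12 months of age, so the 26-month CD mice had been on the CD for longer than the 12-month CD mice, and age and time on the CD cannot be told apart. Each library is from 1 mouse, and a 26-month liver and brain with the same number may come from the same mouse. Each mouse was male, so sex was not compared, and no 12-month liver was analysed here.

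A collagen is built of 3 chains wound into a triple helix, and each kind of chain is encoded by its own gene. Fibrillar collagens such as type I form the tensile fibrils of connective tissue, type IV forms the sheet of every basement membrane, and the multiplexins carry fragments that are released from the vessel wall. In the liver, collagen is made mainly by stellate cells and portal fibroblasts, and type XVIII also by hepatocytes. In the brain it is made mainly by fibroblasts of the meninges and by the cells of blood vessels, while a few chains are made by neurons.

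Total counts were 6879726 to 11786410 per library in KD livers, 8090281 to 12682087 in CD livers, and 7447742 to 12744415 over the 28 brains. The 44 collagen genes held 0.193% to 0.280% of all counts in KD livers and 0.189% to 0.317% in CD livers, and 0.0415% to 0.0614% in the brains. Levels are given as CPM, counts relative to the library total after TMM scaling within the liver fit or the brain fit, and as CPM per kilobase of annotated exon where genes are compared. The transcript of the predicted gene Gm10800 took up more than 0.01% of counts in 6 livers, 5 of them KD, and 0.0347% to 1.22% of counts in the 26-month brains but at most 0.0017% in the 12-month brains. In these 6 livers, 11 members, among them Col2a1, Col9a1, Col11a1 and Col19a1, were higher by share of total counts in every one of them than in every other liver. This was so of 23.5% of all genes with a count, so the collagens did not stand apart. The same 6 livers had 42868 to 47702 genes with a count, against 25030 to 28259 in the other livers. Olfactory, vomeronasal and taste receptor genes summed to a median of 1282 CPM in KD livers and 166 CPM in CD livers, and the groups overlapped.

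In the liver, 33 members had a median count of at least 10 over the 16 libraries, and in the brain 42 did over 28. The levels per kilobase differed most at the top of the order. Col18a1, a multiplexin whose released end fragment is endostatin, averaged 151.8 ± 62.2 CPM per kilobase in the liver (SD, n = 16), which was 49.1% of the summed collagen level. Col14a1, a FACIT chain, followed at 28.0 ± 12.5, the fibrillar Col1a1 at 17.1 ± 18.0, and the basement membrane chains Col4a1 and Col4a2 at 16.6 ± 16.4 and 12.0 ± 12.6. The SDs of Col1a1, Col4a1 and Col4a2 were as large as their means, so these 3 are not ordered beyond their spread, and the next in order, Col6a1 at 10.98 ± 8.09, is not separated from them either. This order pools both diets and rests on CD livers 3, 5, 6 and 7 for these chains. Col1a1, Col4a1 and Col4a2 averaged 11.98, 10.6 and 7.46 CPM per kilobase in KD livers and 22.2, 22.7 and 16.4 in CD livers, and by the median over 16 livers the fibrillar Col27a1 was the third member at 9.49. The 5 highest members held 72.9% of the summed level.

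The brain had a flatter order with other leaders. Col6a1, a beaded filament chain, led with 11.2 ± 5.59 CPM per kilobase (SD, n = 28), or 15.9% of the summed collagen level. Col4a2 followed at 6.39 ± 1.502, the transmembrane neuronal chain Col25a1 at 5.36 ± 1.65, Col4a1 at 5.05 ± 1.34 and the FACIT chain Col19a1 at 4.63 ± 0.93. These neighbours overlapped within 1 SD, and the next member, the fibrillar Col5a1, stood at 2.43 ± 0.65. The 5 highest members held 46.5% of the summed level in the brain. This order rests on the length of all annotated exons, which was 4380 bases for Col6a1 and 12947 for Col25a1. Without division by length, mean CPM was higher for Col25a1 than for Col6a1 in every brain group. It was 60.4 against 46.0 in 26-month KD brains and 76.8 against 46.6 in 12-month CD brains. Col3a1, the companion of type I in soft fibrils, was rank 7 in the liver at 10.4 ± 8.82 but only 0.203 per kilobase in the brain, below 40 other members. Col4a6, a basement membrane chain, had the lowest mean in both tissues, at 0.0863 in the liver and 0.112 in the brain. By the median over 16 livers it was at 0.0384. Col2a1, Col6a4, Col9a1, Col11a1, Col19a1 and Col26a1 were below it, from 0 for Col9a1 to 0.0215 for Col2a1.

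**Figure D1:**
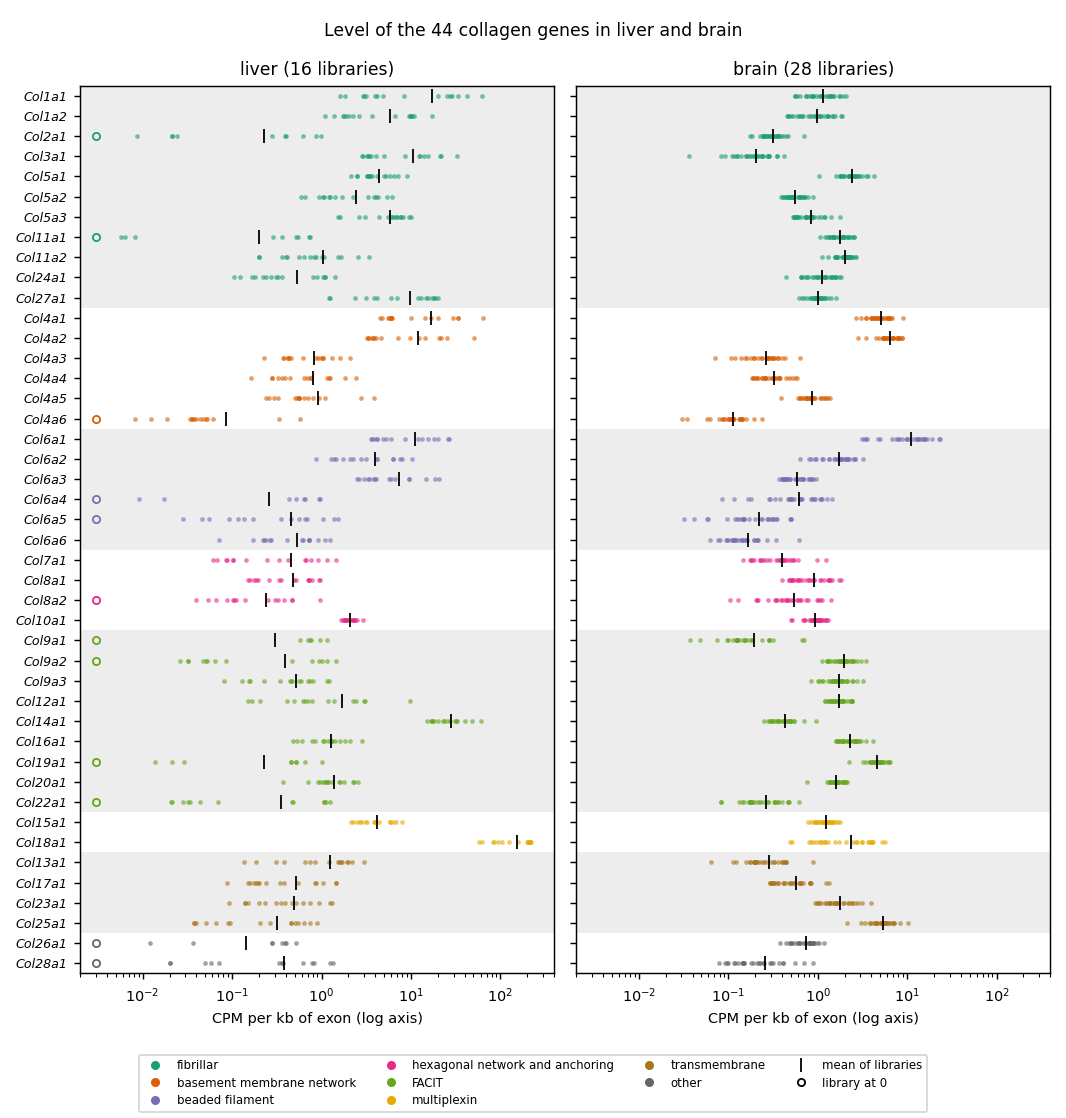
Level of each of the 44 collagen genes in CPM per kilobase of exon on a log axis, livers at left and brains at right. Points are libraries, ticks are means, and open circles at the left edge are libraries with a count of 0; Col18a1 stands at 151.8 in the liver, and Col6a1 leads the brain at 11.2.

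By class, the multiplexins held a median of 62.7% of the summed collagen level per kilobase in the liver (range 17.4% to 74.6%), against 5.01% (2.21% to 12.2%) in the brain. Fibrillar chains had similar shares in both tissues, with a median of 15.1% (11.2% to 34.3%) in the liver and 17.5% (13.03% to 23.1%) in the brain. Basement membrane network chains took 5.51% (2.96% to 33.6%) in the liver and 18.1% (13.5% to 22.6%) in the brain, and the ranges overlapped. The transmembrane chains, at 0.70% (0.172% to 2.44%) in the liver and 11.1% (8.71% to 16.7%) in the brain, did not overlap between the tissues. Beaded filament chains took 5.54% (2.64% to 16.4%) in the liver and 19.6% (8.95% to 35.4%) in the brain.

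Liver and brain were then compared in one fit of the 16 CD libraries of 26-month mice, where age and diet are the same. The fit took the libraries as independent, although equal numbers in the tissues may be the same mouse. Of the 42 members tested, 18 were higher in the liver (42.9%, against 36.0% of all genes tested) and 13 lower (31.0%, against 41.0% of all genes), by edgeR's quasi-likelihood test with an adjusted p under 0.05. With most genes of the table differing between these tissues, the counts say little of collagens as a set, and the chains themselves are of more interest. Col4a6 and Col9a1 were too low to be tested. In these bulk libraries, fewer cells of a type and less RNA per cell cannot be told apart.

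Col18a1 had 399.5, 1025 and 1532 CPM in CD livers (lowest, median and highest) and 5.60, 11.5 and 27.6 CPM in 26-month CD brains, with no overlap. Its log2 fold change was 6.46 (SE 0.48, edgeR adjusted p = 3.48e-09). Reads of Col18a1 may include some of Slc19a1, which overlaps it on the other strand, since the strand setting of the counting is not given in the sources used here. Col14a1 was nearly as far apart, with 118.2 to 420.2 CPM in CD livers and 1.98 to 6.73 CPM in CD brains (log2 fold change 6.26, SE 0.39, edgeR adjusted p = 3.96e-10). Of the 11 fibrillar chains 7 were called higher and 3 lower. Types I and III were among the higher, with log2 fold changes of 6.32 for Col3a1, 5.11 for Col1a1 and 3.65 for Col1a2. So did Col27a1, a fibrillar chain known from cartilage, at 3.41, Col6a3 at 3.62 and Col5a3 at 2.64. Col10a1, the hypertrophic cartilage chain, was also called higher in the liver, but its gene overlaps Nt5dc1 on the other strand. The remaining 9 called higher were Col4a1, Col4a2, Col4a3 and Col4a4 of the basement membrane, the type V chains Col5a1 and Col5a2, the beaded filament chain Col6a2, the transmembrane chain Col13a1 and the second multiplexin, Col15a1, with log2 fold changes of 0.72 for Col4a4 to 2.66 for Col5a2. Col4a2 was not called without CD liver 3 (1.07, edgeR adjusted p = 0.0546) or with shared replicate numbers as a block (0.82, 0.187).

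The 13 members lower in the liver than in the brain came from several classes, with 3 fibrillar and 4 FACIT chains among them. Col19a1, known in the brain from interneurons, had a CPM of 15.3, 27.2 and 37.0 (lowest, median, highest) in the CD brains, whereas 5 of the 8 CD livers had a count of 0 and the highest liver reached 3.54. The log2 fold change was -5.96 (SE 0.82, edgeR adjusted p = 4.74e-06), and it was -8.43 without CD liver replicate 1, the one CD liver with high Gm10800. Col25a1 had 0.484, 1.20 and 9.66 CPM in CD livers and 39.6, 65.5 and 131.5 CPM in CD brains, with a log2 fold change of -4.64 (-5.29 without the same liver). Col11a1, a minor chain of cartilage fibrils, was at -4.81 and Col26a1 at -4.14. The other 9 called lower were the type IX chains Col9a2 and Col9a3, of which Col9a3 overlaps Tcfl5 on the other strand, the network chains Col8a1 and Col8a2, and Col2a1, Col6a4, Col16a1, Col23a1 and Col24a1, between -3.56 for Col9a2 and -1.03 for Col16a1. The 11 members not called lay between -1.18 for Col6a5 and 1.01 for Col12a1, with Col7a1, Col11a2, Col17a1, Col20a1 and Col28a1 among them. A count of 0 in a CD liver allows up to 0.237 to 0.371 CPM, taking 3 counts as the limit and counting error only. Col6a1, the leading brain chain per kilobase, was not called, with 15.7, 37.9 and 117.3 CPM in CD livers, 14.5, 51.0 and 101.0 CPM in CD brains, and a log2 fold change of 0.29 (SE 0.53, edgeR adjusted p = 0.626).

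Chains that assemble into one molecule were compared within each library, since such a ratio does not depend on depth. Several of these partners are also neighbours on the chromosome. Col4a1 and Col4a2, whose chains form the common basement membrane heterotrimer, lie head to head on chromosome 8 and their annotated exons overlap by 22 bases. Col4a3 and Col4a4 lie head to head on chromosome 1 with 71 bases between them, and Col4a5 and Col4a6 head to head on chromosome X with 1308 bases between. Both pairs encode chains of specialised basement membranes. Col6a1 and Col6a2 lie in the same direction on chromosome 10, and Col6a4, Col6a5 and Col6a6 in the same direction on chromosome 9. Col3a1 and Col5a2, and Col9a1 and Col19a1, lie tail to tail on chromosome 1.

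The first sequence is the stretch shared by both ends of the Col4a1 and Col4a2 pair, and the second is all that separates Col4a4 from Col4a3; both are printed 5′ to 3′ from RefSeq promoter windows on GRCm38.p6, with the hexamer GGGCGG in capitals. The motifs searched on both strands were the CCAAT box, the GC box GGGCGG and the TATA box TATAAA.
Col4a1 and Col4a2 overlap, chr8:11312805-11312826, plus strand: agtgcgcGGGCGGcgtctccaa
Between Col4a4 and Col4a3, chr1:82586850-82586920, minus strand: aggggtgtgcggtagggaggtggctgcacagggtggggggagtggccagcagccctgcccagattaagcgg
The Col4a1 and Col4a2 overlap held GGGCGG from base 8, which 4.09% of 32851 mouse promoters hold within the 22 bases from the start, and it was 72.7% G and C. The 71 bases between Col4a4 and Col4a3 held none of the 3 motifs and were 69.0% G and C. Over all promoters, the last 71 bases before the start held CCAAT in 13.3%, GGGCGG in 20.7% and TATAAA in 4.41%. A promoter window was matched for 35 of the 44 members.

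Col4a1 and Col4a2 kept a narrow ratio within each tissue while their levels moved widely. Per kilobase, Col4a1 was 1.28 to 1.81 times Col4a2 in the 16 livers (median 1.44), although Col4a1 itself spanned 14.3-fold in CPM. In the 28 brains the ratio was 0.602 to 1.02 (median 0.785) with Col4a1 spanning 3.29-fold. The tissues therefore did not overlap in the ratio, with Col4a1 the higher chain in every liver. Col1a1 and Col1a2, the chains of type I, had a wider ratio of 1.32 to 4.14 (median 2.32) in livers and 0.699 to 1.70 (median 1.25) in brains, and these ranges overlapped. In livers Col1a1 spanned 37.8-fold.

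The other partners had a wider ratio than Col4a1 and Col4a2 in each tissue where they had enough counts. Not all were wider than type I. Over livers the Col6a1 to Col6a2 ratio spanned 1.93-fold, against 3.13-fold for Col1a1 to Col1a2. Over the 28 brains the ratio of Col11a1 to Col11a2 spanned 2.35-fold, against 2.43-fold for Col1a1 to Col1a2. Col6a1 was 2.15 to 4.15 times Col6a2 in livers and 3.70 to 10.3 times in brains. Col5a1, the main chain of type V, was 1.18 to 4.21 times Col5a2 in livers and 1.69 to 8.87 times in brains. Col4a3 was 0.484 to 3.27 times Col4a4 in livers and 0.548 to 1.41 times in the 27 brains with at least 10 counts of both chains. Col4a5 was 3.50 to 10.2 times Col4a6 in the 12 brains with enough counts, against 2 livers with enough. Exon length is that of all annotated exons, so a constant offset of a ratio from 1 carries the error of that length, while its spread between libraries does not.

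**Figure D2:**
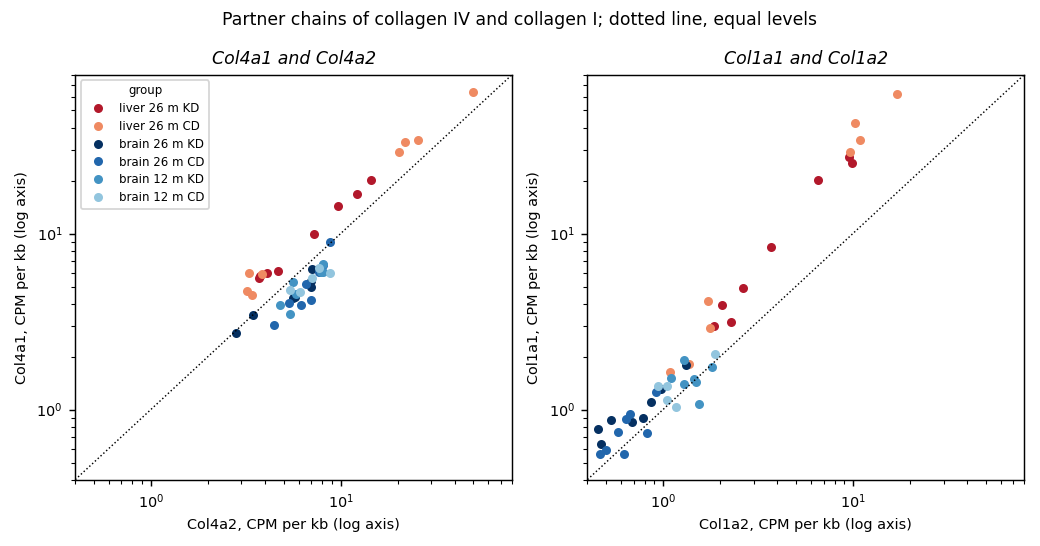
Level of Col4a1 against Col4a2, and of Col1a1 against Col1a2, in CPM per kilobase on log axes, with 1 point per library coloured by group and a dotted line of equal levels. The livers run along a line for type IV with a ratio of 1.28 to 1.81, and the brains along another with a ratio of 0.602 to 1.02.

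The question of aging was asked in the brain on the control diet, comparing 8 brains of 26-month CD mice with 5 of 12-month CD mice. The 2 chains of type I collagen fell with age, and no other member passed the test. They were 4.55% of the 44 members tested, against 0.258% of all genes called lower, and no member was called higher, against 1.0% of all genes. Over the members, 24 fold changes were positive and the median log2 fold change was 0.0167, against -0.00198 over all genes.

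Col1a2, the second chain of type I, had 5.76, 7.84 and 11.5 CPM in 26-month CD brains (lowest, median, highest), against 23.3, 14.5, 13.01, 13.1 and 11.7 CPM in 12-month CD brains 1, 4, 7, 13 and 16. All 8 older brains lay below all 5 younger ones. This was a log2 fold change of -0.90 (SE 0.21, edgeR adjusted p = 0.0285). Col1a1, the first chain, had 3.65, 4.85 and 8.23 CPM in 26-month CD brains, against 13.5, 6.75, 8.90, 7.46 and 8.91 CPM in the same 12-month CD brains. Here 7 of the 8 older brains lay below every younger one. Its log2 fold change was -0.83 (SE 0.22, edgeR adjusted p = 0.0499), right at the threshold.

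The part of the Col1a2 promoter window that lies outside exons is printed here because Col1a2 is the member that fell most, with GGGCGG in capitals.
Col1a2 upstream, chr6:4505370-4505492, plus strand: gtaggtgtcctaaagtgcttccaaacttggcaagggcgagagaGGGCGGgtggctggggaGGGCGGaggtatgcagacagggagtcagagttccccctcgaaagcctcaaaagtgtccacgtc
These 123 bases end 125 bases before the RefSeq start and hold GGGCGG from bases 44 and 61. They lie inside the Col1a2 gene of GENCODE M21, which starts at base 4504814. The full 250 bases before the RefSeq start also hold CCAAT, though not within the printed stretch. The same stretch of all promoter windows held that hexamer in 13.3%, CCAAT in 16.6% and TATAAA in 6.13%.

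KD brains are given beside these as values. At 26 months, KD brains had 5.68, 9.12 and 16.4 CPM of Col1a2 and 4.19, 5.81 and 11.7 CPM of Col1a1. At 12 months, KD brains had 13.7, 18.1 and 22.4 CPM of Col1a2 and 7.09, 9.76 and 12.5 CPM of Col1a1. The KD brains were thus low at 26 months and high at 12 months for the most part, with an overlap in both genes.

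The call of Col1a2 did not survive the loss of 12-month CD brain 1, its highest library, where the log2 fold change was -0.69 (edgeR adjusted p = 0.156). It was also lost without 12-month CD brain 4 (0.0633), 26-month CD brain 3 (0.0551) or 26-month CD brain 4 (0.0503). Col1a1 kept an edgeR adjusted p under 0.05 in only 1 of 13 such fits, that without 26-month CD brain 5 (0.0204), and reached 0.225 without 12-month CD brain 1. The sign was negative for both genes in all 13.

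Markers of meningeal fibroblasts, the cells that line the surface of the brain, moved with type I collagen. None of these 10 markers is a collagen. All 10 had a negative fold change with a median of -1.14 on the log2 scale, and 6 were called lower by edgeR, among them the organic anion transporter Slc22a6 at -1.88, the sulfate transporter Slc13a4 at -1.53 and the retinoic acid enzyme Aldh1a2 at -1.33. The summed marker level was 28.3, 34.0 and 44.9 CPM in 26-month CD brains, against 67.7, 74.6 and 113.6 CPM in 12-month CD brains, with no overlap. The 12-month CD brain 1 was highest for the markers, for Col1a1 and for Col1a2. Between 9 and 10 of the 10 markers had a count in every brain.

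With the summed marker level as a covariate in the fit, the log2 fold change was 0.06 for Col1a2 (edgeR adjusted p = 0.972) and 0.22 for Col1a1 (0.844), and no member was called. Because the marker level did not overlap between the ages, age and the amount of this cell type in a library cannot be told apart here. For 10 choroid plexus markers the median was -0.611 on the log2 scale and 0 were called. Gm10800 took 0.0551% or more of counts in every 26-month CD brain and at most 0.00134% in the 12-month CD brains, so age and this signal cannot be told apart either.

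**Figure D3:**
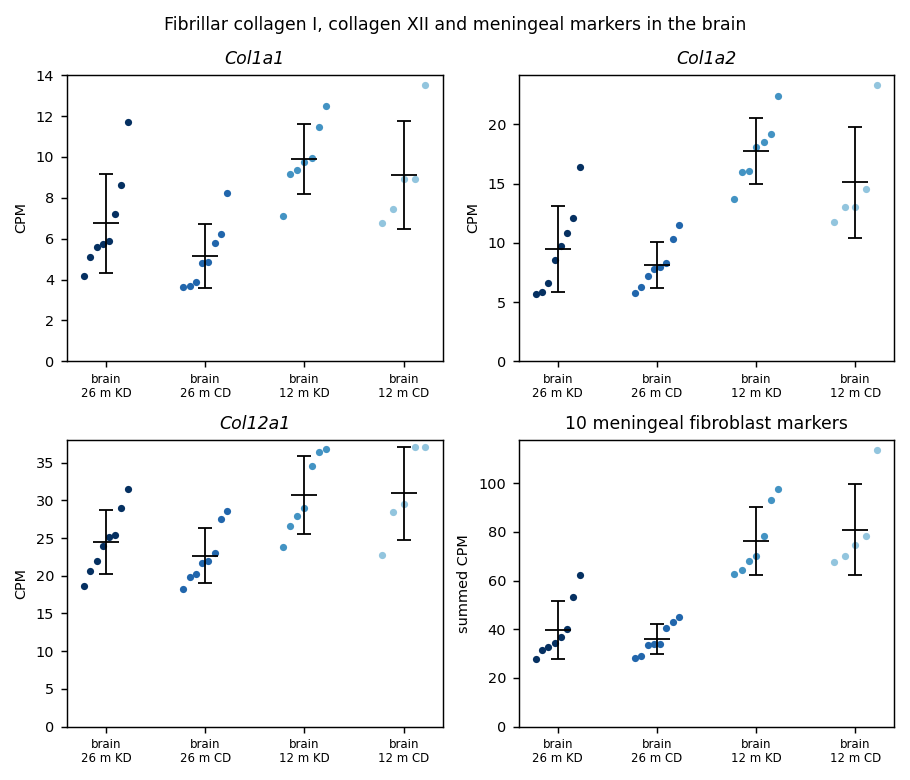
CPM of Col1a1, Col1a2 and Col12a1 and the summed CPM of 10 meningeal fibroblast markers in the 28 brains, in the order 26-month KD, 26-month CD, 12-month KD, 12-month CD. Points are brains, bars are the mean ± SD; the 26-month CD brains stay at or below 11.5 CPM of Col1a2 and the 12-month CD brains at or above 11.7.

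Col12a1, a FACIT chain that binds type I fibrils, had the next smallest p. It had 18.3, 21.8 and 28.6 CPM in 26-month CD brains, against 37.0, 28.4, 22.7, 29.5 and 37.0 CPM in the 12-month CD brains. The groups overlapped, and the log2 fold change was -0.45 (SE 0.14, edgeR adjusted p = 0.109). In all 8 of 44 members had an unadjusted p under 0.05, against 11.8% of all genes. Of the other members among them, Col22a1, a FACIT chain of tendon and muscle junctions, was at 1.04 on the log2 scale (edgeR adjusted p = 0.131), with 1.62 to 5.74 CPM in 26-month CD brains against 1.33 to 1.74 CPM in 12-month CD brains. Col6a5 at 1.12, Col5a3 at 0.52, Col23a1 at -0.68 and Col19a1 at -0.33 made up the rest. Col3a1, which accompanies type I elsewhere, had 0.361, 1.38 and 3.49 CPM in 26-month CD brains against 1.22 to 4.12 CPM in 12-month CD brains, too few counts for a narrow estimate. None of the 6 basement membrane network chains had an unadjusted p under 0.05, with a class median of -0.0568.

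The genes that act on collagen were followed in lists of known members for the same comparison. Of 13 collagen-binding matrix proteins, 3 were called lower and none higher in older brains. Fmod, a small proteoglycan that regulates fibril growth, was at -1.92 on the log2 scale (SE 0.23, edgeR adjusted p = 1.45e-05), Ogn at -1.33 (SE 0.24, 0.00249) and Bgn at -0.81 (SE 0.15, 0.00279), both also small leucine-rich proteins of the matrix. The list median was -0.386. Of 9 collagen receptors tested, Ddr2, a receptor kinase for fibrillar collagen, was at -0.83 (SE 0.15, edgeR adjusted p = 0.00216), and Mrc2, which takes up collagen for degradation, at -0.84 (SE 0.16, 0.00354), and the list median was -0.0123. With the meningeal marker level as a covariate none of these 5 genes was called (edgeR adjusted p of 0.291 for Fmod and 0.838 or more for the others), and the sign of Mrc2 turned, at 0.06. That level did not overlap between the ages, and with it Herc3 was the only gene of all called lower, against 57 without it. The loss of these calls therefore cannot tell meningeal content from age.

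Pcolce, which enhances the removal of the propeptide of type I collagen, was the one of 14 propeptide and cross-linking genes called, at -0.72 (SE 0.17, edgeR adjusted p = 0.0328), and it was at 0.13 with that covariate (0.915). Tgfb1, a growth factor that induces collagen in many cells, was the one of 14 TGF-beta genes called, and it was higher in older brains at 0.48 (SE 0.12, 0.0397), or 0.58 with the covariate (0.258). For Pcolce and Tgfb1 too, a call lost with this covariate cannot tell meningeal content from age. None of 19 genes of chain modification and folding was called, where P4ha3, a prolyl hydroxylase subunit, came closest at 0.55 (edgeR adjusted p = 0.245). None of 15 basement membrane partners was called, where the laminin chain Lamc3 came closest at -0.48 (0.059), nor was any of 11 collagenases and their inhibitors. The lists were drawn up with results of these data known, so they describe and do not test.

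In the brain after one week of KD, at 12 months, no collagen was called in either direction by edgeR (0.00453% of all genes were called higher and 0.0% lower), and none by DESeq2. At an unadjusted p under 0.05 there was 1 of 44 members, against 2.65% of all genes. Col27a1 had 8.79, 14.1 and 20.7 CPM in 12-month KD brains, against 9.08 to 12.3 CPM in 12-month CD brains. The groups overlapped, and the log2 fold change was 0.36 (SE 0.17, edgeR adjusted p = 1). Col24a1, a minor fibrillar chain, had 3.38, 5.56 and 12.2 CPM in 12-month KD brains against 6.95 to 12.0 CPM in 12-month CD brains (log2 fold change -0.49, SE 0.26). Col4a3 had 0.718, 2.33 and 3.09 CPM against 1.53 to 3.32 CPM (-0.50, SE 0.34). Over the 44 members the fold changes lay between -0.50 and 0.36, and their median was 0.045.

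In the brain after one year of cyclic KD, at 26 months, no collagen was called by edgeR (0.0% of all genes were called higher and 0.0% lower), and none by DESeq2. At an unadjusted p under 0.05 there were 2 members, against 4.52% of all genes. Col5a3, a chain of type V, had 3.64, 4.50 and 8.04 CPM in 26-month KD brains, against 5.11, 6.11 and 12.2 CPM in 26-month CD brains. Apart from replicate 14 at 8.04 CPM, the KD brains reached at most 5.11 CPM, the level of the lowest CD brain. For Col5a3 the log2 fold change was -0.56 (SE 0.20, edgeR adjusted p = 0.989). Col1a1 was at 0.40 (SE 0.20, edgeR adjusted p = 0.989), with 4.19, 5.81 and 11.7 CPM in KD brains against 3.65, 4.85 and 8.23 CPM in CD brains. The same 26-month CD brains stand in this comparison and in that of age, so the fold changes of Col1a1 and Col5a3 in them are not independent. Col6a5, a beaded filament chain, had 0.304, 1.72 and 3.20 CPM in KD brains against 0.389, 3.08 and 4.74 CPM in CD brains (log2 fold change -0.72, SE 0.40). The median over 44 members was -0.0644.

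The diet effect after one year was tested directly against that after one week. No member was called in either direction by edgeR (0.0% of all genes were called higher and 0.0% lower) or by DESeq2, and 1 had an unadjusted p under 0.05, against 4.52% of all genes. Col5a3 had a difference of -0.72 on the log2 scale (SE 0.31, edgeR adjusted p = 1), Col27a1 of -0.44 (SE 0.22) and the FACIT chain Col9a2 of -0.52 (SE 0.30). Col9a2 had 3.91, 4.98 and 7.65 CPM in 26-month KD brains and 3.43, 6.42 and 10.8 CPM in 26-month CD brains, and 4.85, 6.43 and 9.35 CPM in 12-month KD brains and 4.19 to 6.95 CPM in 12-month CD brains. The 4 groups overlapped.

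The brain chains that led per kilobase had wide ranges within each group. Col6a1 had 13.9, 50.9 and 69.5 CPM in 26-month KD brains, 14.5, 51.0 and 101.0 CPM in 26-month CD brains, 15.1, 55.1 and 83.8 CPM in 12-month KD brains and 34.7, 42.1 and 66.9 CPM in 12-month CD brains. Its fold changes were -0.22 (SE 0.39) for one year of KD, 0.05 (SE 0.46) for one week and 0.20 (SE 0.44) for age, all on the log2 scale and none called. Col4a1 was narrower, with 20.2, 33.1 and 46.9 CPM in 26-month KD brains, 22.6, 34.9 and 66.6 CPM in 26-month CD brains, and fold changes of -0.22 (SE 0.18), -0.08 (SE 0.21) and -0.06 (SE 0.21) for the same comparisons. Col4a2 had 18.7, 38.0 and 46.6 CPM in 26-month KD brains against 29.4, 44.7 and 58.1 CPM in 26-month CD brains.

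Col19a1 had 22.3, 31.9 and 42.5 CPM in 26-month KD brains, 15.3, 27.2 and 37.0 CPM in 26-month CD brains, 23.6, 30.7 and 42.8 CPM in 12-month KD brains and 30.6 to 43.97 CPM in 12-month CD brains. Col25a1, a transmembrane collagen of neurons, had 27.7, 62.2 and 85.8 CPM in 26-month KD brains and 39.6, 65.5 and 131.5 CPM in 26-month CD brains. The sum of 12 hindbrain markers ran from 2.94 to 161.0 CPM over 26-month KD brains, 2.53 to 206.7 CPM over 26-month CD brains, 2.96 to 340.7 CPM over 12-month KD brains and 0.73 to 105.9 CPM over 12-month CD brains. Its part in the spread of these chains was not tested.

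In the liver after one year of cyclic KD, no collagen was called in either direction by edgeR (0.0% of all genes were called higher and 0.0% lower). Of the 34 members tested, 5 had an unadjusted p under 0.05, against 15.5% of all genes, and all 5 were positive. The members' median log2 fold change was 0.27, against 0.0432 over all genes, and 20 of 34 were positive. DESeq2 called 2 members higher, Col6a5 and Col6a6, against 0.487% of all genes it tested. The 4 transmembrane chains were all positive, from 0.49 for Col13a1 to 1.24 for Col25a1, with none at an unadjusted p under 0.05. Col17a1 among them was higher in each of the 6 livers with the Gm10800 signal, 5 KD and 1 CD, than in every other liver. Markers of mesothelium were positive in 8 of 8 (median 1.22) and of bile duct cells in 7 of 7 tested (median 0.708), with 0 called, and the part of either in these chains was not tested. The 9 fibrillar chains tested had a median of -0.232 and the 5 basement membrane network chains one of 0.385, with 3 positive in each class. The 10 members not tested, among them Col2a1, Col9a1, Col11a1 and Col19a1, were too low in too many livers. Each had a higher mean in KD than in CD livers. Means ran from 1.18 against 0.200 CPM for Col4a6 to 5.13 against 1.41 CPM for Col22a1. Of these 10, Col2a1, Col6a4, Col9a1, Col9a2, Col11a1, Col19a1, Col22a1 and Col26a1 were higher in every liver with the Gm10800 signal than in every other liver.

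Col6a5 and Col6a6, beaded filament chains that lie side by side on chromosome 9, had the smallest p. Col6a5 had 1.61, 6.31 and 14.5 CPM in KD livers, against 0.0, 0.691 and 5.31 CPM in CD livers. The highest CD liver was replicate 1, and the other 7 were at or below 1.29 CPM, under every KD liver. For Col6a5 the log2 fold change was 2.66 (SE 0.68, edgeR adjusted p = 0.291). Col6a6 had 2.09, 6.65 and 11.5 CPM in KD livers, against 0.659, 2.32 and 5.58 CPM in CD livers (1.48, SE 0.37, edgeR adjusted p = 0.291), with CD replicate 1 again the highest CD liver. Without CD replicate 1, both were called, Col6a5 at 3.47 (edgeR adjusted p = 0.037) and Col6a6 at 1.69 (0.0461). The share of all genes called in that fit is not given here.

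CD replicate 1 was the one CD liver with high Gm10800, and 5 of the 8 KD livers had the same signal. The fit without CD replicate 1 therefore kept the signal in KD livers alone. Without these 6 livers, 3 KD livers remained against 7 CD livers. Col6a5 was then at 2.48 and Col6a6 at 1.37 on the log2 scale, but with an edgeR adjusted p of 0.997. Col6a5 had 4.29 to 14.5 CPM in the 5 KD livers with the signal and 1.61 to 6.09 CPM in the 3 without it. The part of the signal in the diet difference was not tested.

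Col4a5, a chain of specialised basement membranes, had 3.36, 4.27 and 25.9 CPM in KD livers, against 1.59, 2.86 and 7.30 CPM in CD livers. KD replicates 10 and 9, at 25.9 and 18.6 CPM, were far above the others, and the groups overlapped. For Col4a5 the log2 fold change was 1.26 (SE 0.51, edgeR adjusted p = 0.296). Summed bile duct markers were highest in KD livers 9, 10 and 13 and CD liver 5, at 383, 374, 292 and 267 CPM, against 84.2 to 116 CPM in the others. With that sum as a covariate the fold change of Col4a5 was 0.54, and it was 0.78 without KD replicate 10 (edgeR adjusted p = 0.481).

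**Figure D4:**
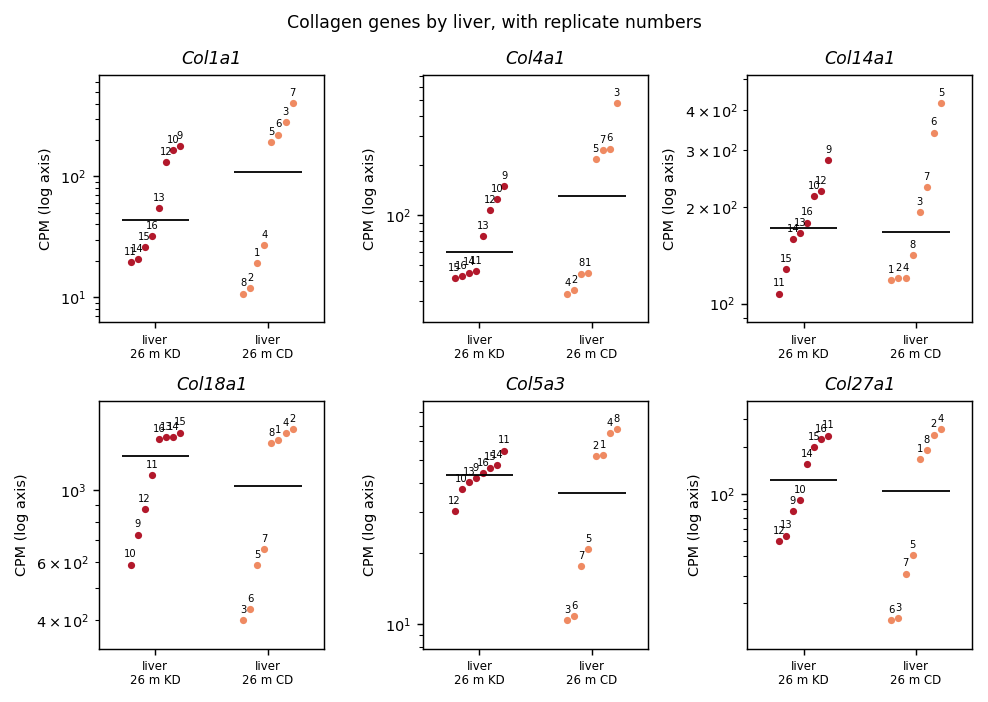
CPM of Col1a1, Col4a1, Col14a1, Col18a1, Col5a3 and Col27a1 in each liver on a log axis, KD livers left of CD livers. Points are marked with the replicate number and the bar is the median; among the CD livers, replicates 3, 5, 6 and 7 are the 4 highest for Col1a1 and Col4a1 and the 4 lowest for Col18a1.

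The larger differences in the liver were between mice of one group. Among members with at least 50 counts in every library of a group, the ratio of the highest to the lowest liver had a median of 3.91 in KD livers and 10.4 in CD livers, whereas in the 4 groups of brains it was 1.63 to 2.40. Col1a1 had 178, 165, 19.4, 132, 54.8, 20.7, 25.9 and 32.2 CPM in KD livers 9 to 16, against 19.2, 11.9, 279.6, 27.1, 191, 222, 404 and 10.7 CPM in CD livers 1 to 8. The high livers were CD 3, 5, 6 and 7 and, below them, KD 9, 10 and 12. The log2 fold change between diets was -0.89 (SE 0.79, edgeR adjusted p = 0.586).

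Col4a1 had the same 4 high CD livers. It had 149, 125, 45.6, 108, 74.3, 44.7, 41.5 and 42.7 CPM in KD livers 9 to 16, against 44.4, 35.0, 478, 33.4, 218, 253, 247 and 44.1 CPM in CD livers 1 to 8. The log2 fold change between diets was -1.10 (SE 0.57, edgeR adjusted p = 0.352), and that of Col4a2 was -1.14 (SE 0.59, 0.358). Col14a1 had 107.3, 172.1 and 280.1 CPM in KD livers and 118.2, 166.7 and 420.2 CPM in CD livers, again with CD livers 3, 5, 6 and 7 above the other CD livers. Col12a1 had 6.27, 10.99 and 34.4 CPM in KD livers and 2.29, 24.0 and 148 CPM in CD livers.

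Col18a1, the most abundant chain of the liver, had the opposite order. It had 729, 591, 1110, 875, 1451, 1452, 1497 and 1428 CPM in KD livers 9 to 16, against 1419, 1532, 399.5, 1495, 587, 432, 659 and 1391 CPM in CD livers 1 to 8. The low livers were CD 3, 5, 6 and 7 and KD 9, 10 and 12, those that were high in Col1a1. Col27a1, with 50.1, 123.5 and 235.2 CPM in KD livers and 15.7, 104.0 and 258 CPM in CD livers, and Col5a3, with 30.2, 43.0 and 54.9 CPM in KD livers and 10.4, 36.3 and 67.5 CPM in CD livers, were also lowest in CD livers 3, 5, 6 and 7.

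Neutrophil markers moved with this order among CD livers. The sum of 10 such markers was 3050, 2963, 1225 and 653 CPM in CD livers 3, 6, 7 and 5 and 31.0 to 63.8 CPM in the other CD livers. In KD livers it was 782 CPM in replicate 13, 286 CPM in replicate 12 and 25.0 to 70.8 CPM in the rest, with 70.8 and 62.9 CPM in replicates 9 and 10, the KD livers highest in Col1a1. Hepatocyte markers summed to 14197, 16837, 16828 and 21210 CPM in CD livers 3, 5, 6 and 7 and to 34711 CPM or more in the other CD livers. In KD livers they summed to 28728, 24191 and 27930 CPM in replicates 9, 10 and 12 and to 33704 CPM or more in the rest. Stellate cell markers summed to 625.4 to 1016 CPM over KD livers, to 1032, 1178, 944 and 905 CPM in CD livers 3, 5, 6 and 7, and to 604 to 773 CPM in the other CD livers. Portal fibroblast markers summed to 332, 325 and 260.4 CPM in KD livers 13, 10 and 9 and 80.6 to 135 CPM in the other KD livers, against 200.2, 226, 341 and 163 CPM in CD livers 3, 5, 6 and 7 and 76.03 to 106 CPM in the other CD livers. The part of these cells in the collagen levels was not tested.

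**Figure D5:**
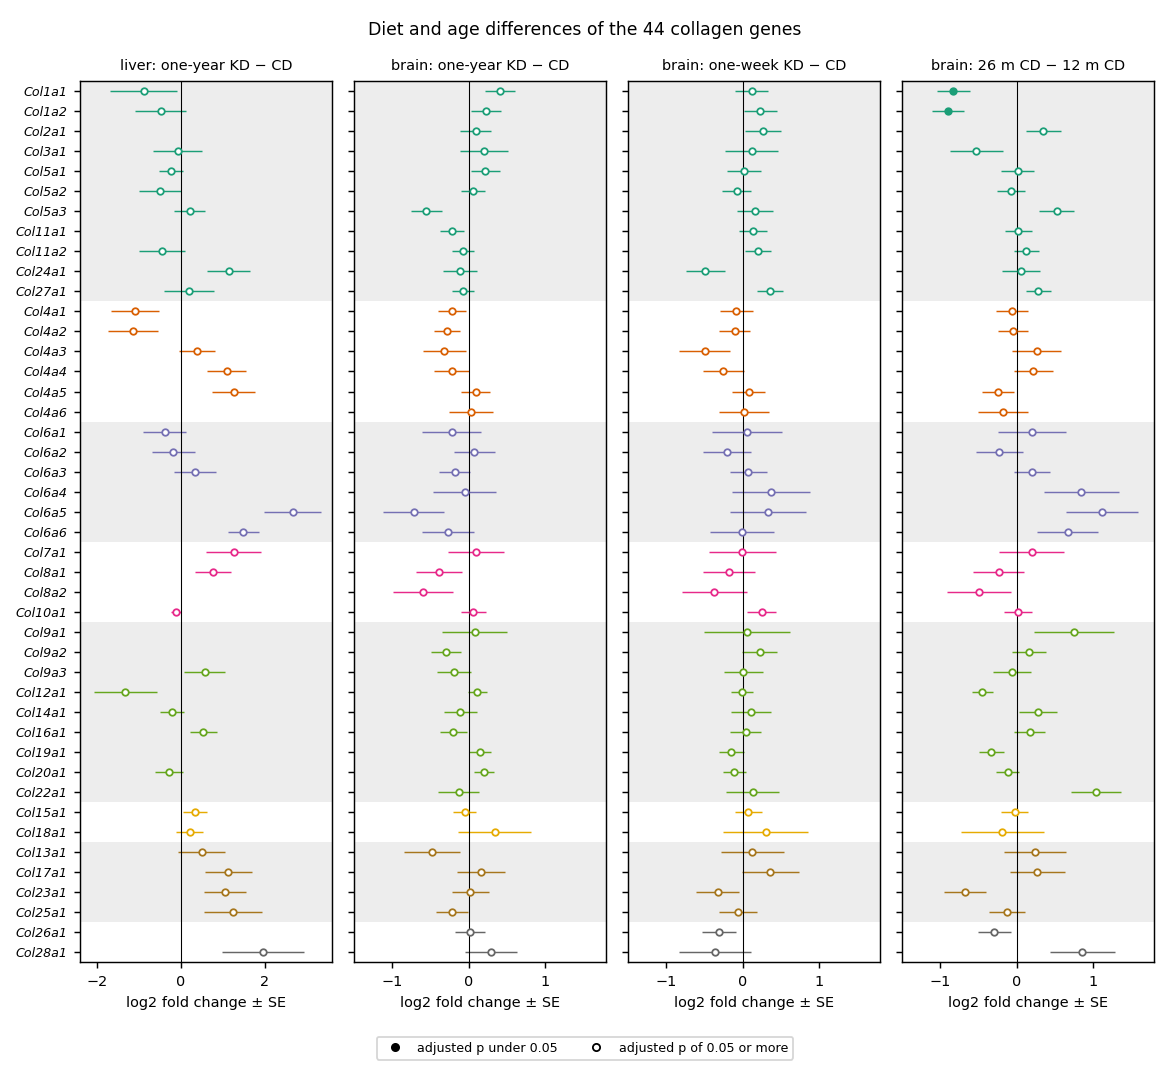
Log2 fold change ± SE of each tested collagen gene in 4 comparisons, namely one-year KD in the liver, one-year KD and one-week KD in the brain, and 26 over 12 months in CD brains. Filled points have an edgeR adjusted p under 0.05; only Col1a1 and Col1a2 in the age comparison are filled.

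The genes that act on collagen gave no call in any of the diet comparisons. In the liver, Plod1, a lysyl hydroxylase, had the smallest p of the modification list, at -1.06 on the log2 scale (SE 0.28, edgeR adjusted p = 0.291). Mmp9, a gelatinase that is also a neutrophil marker, had the smallest p of the collagenase list, at -5.42 (SE 1.33, 0.291).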

How the data were processed

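RNA of 16 livers and 28 brains was sequenced after ribosomal RNA depletion. The authors trimmed reads with Trimmomatic, aligned them to GRCm38 with STAR and quantified genes with RSEM, and deposited a table of raw whole-number counts per Ensembl gene. The study's methods link the genome to an archived Ensembl release, and tool versions and the strand setting are not given in the sources used here. The 44 members and all lists were chosen with earlier results of these data known, and the labels do not name batches, cages or litters.

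Groups were taken from the sample labels. Counts were fitted with edgeR 4.0.16 in R 4.3.3 (filterByExpr, TMM, quasi-likelihood F test, Benjamini-Hochberg adjustment over all genes tested), with the 16 livers in one fit, the 28 brains in another fit of 4 groups, and the 16 CD libraries of 26-month mice in one more for liver against brain. The threshold for a call was an adjusted p of 0.05. Named with values are all members called in a diet or age comparison, the 3 with the smallest p in each of these, and the 5 with the highest mean CPM per kilobase in each tissue. From the lists, each gene called in a diet or age comparison is named, or the gene with the smallest p. Other members are named for their place in a tissue comparison or class, chosen after their values were seen, Col3a1, Col10a1 and Col22a1 among them. Exon lengths are unions of GENCODE M21 exons, and ratios of partner chains need 10 counts of both. In simulated data with 200 changed genes the fits were tested before use.

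Alternatives were DESeq2 1.42.0, scaling by RLE factors or by totals without TMM, testing unfiltered genes or only those with 10 counts or more in each library, a robust fit, only the groups compared, libraries high in Gm10800 left out, marker sums as a covariate, each library left out in turn, and a replicate block. Shared replicate numbers were not taken as pairs. In the age comparison the same number belongs to different mice. Between liver and brain, the deviations of same-numbered libraries correlated at 0.0908 or less. Precision is limited by 6879726 to 12744415 counts per library, and limits from counts of 0 cover counting error only.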

Additional observations from a re-analysis of the deposited data

Results flagged for a closer look

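In 72 groups of values (a named member in 1 group of 5 to 8 libraries), the highest or lowest library was set against the rest of its group by Dixon's criterion. It stood apart in 5, or 6.94%, where chance gives about 1 in 20. Col6a5 in CD liver replicate 1 was at 5.31 CPM, while the other 7 CD livers were at 0 to 1.29 CPM. Col27a1 in 26-month KD brain replicate 11 was at 17.002 CPM, while the other 7 were at 10.8 to 13.7 CPM. Col1a2 in 12-month CD brain replicate 1 was at 23.3 CPM, while the other 4 were at 11.7 to 14.5 CPM. Col5a3 in 26-month KD brain replicate 14 was at 8.04 CPM, while the other 7 were at 3.64 to 5.11 CPM. Col25a1 in 26-month CD brain replicate 6 was at 131.5 CPM, while the other 7 were at 39.6 to 82.1 CPM. No member differed in its diet effect between one year and one week of KD by the edgeR test of that difference.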

How the results depend on the processing

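The count of members that fell with age, 2 in the fit as reported, was 0 with total counts alone, 0 with meningeal markers as a covariate, 1 with at least 10 counts in every library, 1 with only the 2 groups compared, and 0 to 2 when each library was left out in turn. The cause was not tested. With the meningeal covariate the log2 fold change turned to 0.063 for Col1a2 and 0.22 for Col1a1. Collagens higher in KD livers numbered 0, against 2 with DESeq2 and 0 to 2 when each library was left out. Members lower in liver than in brain numbered 13, against 3 with at least 10 counts in every library, where fewer genes are tested, and 11 to 17 when each library was left out. Over all genes, the aging fit called 221 higher and 57 lower, against 393 and 106 with DESeq2, 146 and 47 without a filter, 90 and 31 with only the 2 groups, and 57 and 1 with the covariate. In livers it called 0 and 0, against 86 and 91 with DESeq2. Of 304 counts of members under alternatives, 284 were within 1.5 times the reported count. Most of these were 0 against a reported 0, so this tally says little of the calls that were made. Of 566 fold changes 536 kept direction and side of the threshold, 2 reversed, 24 lost a call and 4 gained one.

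With the shared numbers as a replicate block, Col1a2 fell by 1.23 with age (edgeR adjusted p = 0.222) and Col1a1 by 1.21 (0.206), 0 members were called, and all genes gave 12 higher and 1 lower. Only 3 numbers are shared there, between different mice, and same-numbered brains correlated at 0.092, -0.113 and 0.171. Between liver and brain the block left Col4a2 at 0.82 (edgeR adjusted p = 0.187). Not every library correlated best with its own number. Col4a2 was also not called without CD liver 3 (1.07, 0.0546). The 5 to 8 mice a group, low counts of several chains, and the spread among CD livers limit what these libraries can show.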
